A study of Mus musculus with 6 samples.

Results

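The genes described here encode 4 long-chain acyl-CoA synthetases (Acsl1, Acsl3, Acsl4 and Acsl5) and 5 acyltransferases that rebuild phospholipids (Lpcat1, Lpcat2, Lpcat3, Mboat1 and Mboat2). They were taken by symbol from the table of read counts, and all 9 were found among its 43346 genes. Their RNA was compared between primary mouse embryonic fibroblasts (MEFs), which are fibroblasts grown from mouse embryos, kept for 24 h with 3 µM erastin and the same cells given the solvent DMSO. Each group had 3 libraries. The cells of both groups came from the C57BL/6 strain, were at passage 9, and grew in medium with fetal bovine serum and 2-mercaptoethanol. Erastin blocks the cystine/glutamate antiporter and is used to start ferroptosis, a death of cells by iron-dependent peroxidation of membrane lipids. The labels do not say whether the 3 libraries of a group came from separate embryos or cultures, so the p-values measure the spread between these libraries, which may in part be technical.

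Fatty acids enter phospholipids only after an acyl-CoA synthetase has joined them to coenzyme A. ACSL4 prefers arachidonic and adrenic acid, the polyunsaturated chains whose peroxidation drives ferroptosis, whereas ACSL3 is known for activating oleic acid, a monounsaturated chain that makes membranes less easily oxidised. Lysophospholipid acyltransferases then place the acyl-CoA on a lysophospholipid in the remodelling pathway known as the Lands cycle. LPCAT3 favours polyunsaturated chains, LPCAT1 favours saturated ones, LPCAT2 also makes platelet-activating factor, and MBOAT1 and MBOAT2 favour oleic acid and are known as suppressors of ferroptosis. LPCAT3, MBOAT1 and MBOAT2 belong to the membrane-bound O-acyltransferase family, and LPCAT1 and LPCAT2 to the family of the lysophosphatidic acid acyltransferases.

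With erastin, Acsl1 and Acsl4 rose and Lpcat1, Lpcat3 and Mboat1 fell, so that 5 of the 9 genes differed at an adjusted p under 0.05 (edgeR quasi-likelihood test, Benjamini-Hochberg adjustment over the 14000 genes tested). All 9 passed the filter on low counts. Of all genes tested, 43.1% differed in either direction, 21.6% as higher and 21.5% as lower, so a count of 5 in 9 does not set these genes apart from the rest of the table. The same 5 of 9 passed at an adjusted p under 0.01, against 30.8% of all genes. In 7 of the 9 the 3 erastin libraries did not overlap the 3 DMSO libraries in level, a separation seen in 52.5% of all genes. The median log2 fold change was 0.32 over the 4 synthetases (-0.23 to 0.86) and -0.77 over the 5 acyltransferases (-2.25 to -0.17). Over all genes tested it was -0.0014. The median of the acyltransferases is the value of Lpcat2, which was not called. Other acyl-CoA synthetases with fatty acid transport proteins, and other glycerophospholipid acyltransferases, had medians of 0.031 and 0.037. Of the synthetases 2 rose and 0 fell, and of the acyltransferases 0 rose and 3 fell. DMSO replicate 3 had the lowest level of its group in 7 of the 9 genes. How often it did so over all genes was not counted. Without this library 7 of the 9 were called, Acsl5 and Lpcat2 being added as lower. In that fit 5809 of all 14463 genes tested were called. The cells expressed fibroblast markers, such as collagens, at a high level, summed to 30931 to 32153 CPM with DMSO and 18519 to 20673 CPM with erastin, with 9 of 10 lower and 0 higher. The part of this difference in the values of the 9 genes was not tested, and bulk RNA cannot tell fewer cells of a type from less RNA per cell.

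**Figure D1:**
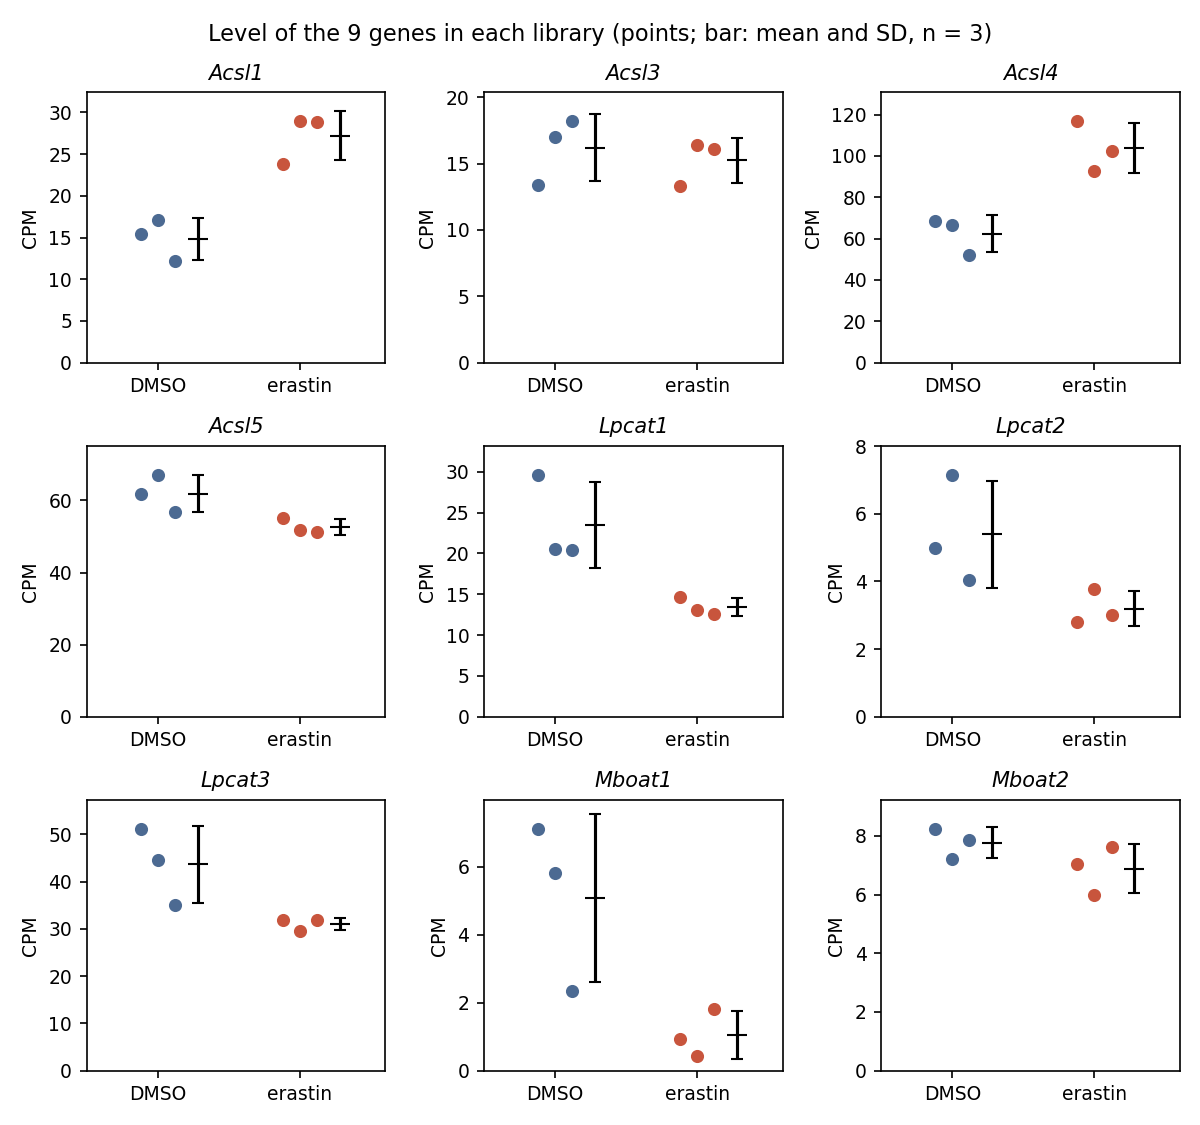
Level of each gene in CPM (counts per 1000000 counts of the library, linear axes starting at 0) in the 3 DMSO libraries (blue) and the 3 erastin libraries (red), with each group's mean and SD (n = 3) in black. Acsl1 and Acsl4 lie higher in all erastin libraries, Acsl5, Lpcat1, Lpcat2, Lpcat3 and Mboat1 lie lower in all of them, and the points of Acsl3 and Mboat2 overlap.

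Of the 4 synthetases described here, Acsl4 (ENSMUSG00000031278.8, chrX:142317993-142390535, minus strand, GRCm38) was the most abundant per length after erastin. It had the smallest p-value of the 9 genes. Its level was 68.5, 66.6 and 52.1 CPM in the DMSO libraries and 117, 92.6 and 102 CPM in the erastin libraries, listed here and for the other genes from replicate 1 to replicate 3. CPM values are counts divided by the library total and its TMM factor, so they compare libraries and not genes of different length. The lowest erastin library lay above the highest DMSO library. Acsl4 rose 1.66-fold, from 62.4 ± 8.99 to 104 ± 12.2 CPM (SD of 3 libraries; log2 fold change 0.74 with an SE of 0.11, edgeR adjusted p = 0.000109).

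Acsl1 (ENSMUSG00000018796.8, chr8:46471037-46536051, plus strand) encodes the synthetase best known for supplying acyl-CoA to triglyceride synthesis and mitochondrial oxidation in fat, heart and liver. It stood at 15.4, 17.1 and 12.1 CPM in the DMSO libraries and at 23.8, 29.0 and 28.8 CPM in the erastin libraries. Again every erastin library was above every DMSO library. Acsl1 rose 1.82-fold, from 14.9 ± 2.51 to 27.2 ± 2.93 CPM (SD of 3 libraries; log2 fold change 0.86 with an SE of 0.16, edgeR adjusted p = 0.000401). The markers of adipocytes, a cell type in which Acsl1 is abundant, summed to 23.8 to 26.9 CPM in DMSO and 30.7 to 36.1 CPM in erastin libraries. Of these 8 markers Adipoq and Cidec had 0 reads, Plin1 and Lep had at most 1 read in any library, and of the 3 that could be tested 1, Pparg, rose.

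Upstream sequences are shown for Acsl4 and Acsl1, the synthetases that rose, and for Mboat1, the gene with the largest fold change of the 9. RefSeq (GRCm38.p6) held a promoter for each of the 9 genes, and 2 for Acsl1, of which the second lies within an intron of the longer gene model. Each line gives the 250 bases before a transcript start, read 5′ to 3′ on the strand of the gene, with bases that match 1 of 6 searched motifs in capitals.
Acsl4, chrX:142390536-142390785, minus strand: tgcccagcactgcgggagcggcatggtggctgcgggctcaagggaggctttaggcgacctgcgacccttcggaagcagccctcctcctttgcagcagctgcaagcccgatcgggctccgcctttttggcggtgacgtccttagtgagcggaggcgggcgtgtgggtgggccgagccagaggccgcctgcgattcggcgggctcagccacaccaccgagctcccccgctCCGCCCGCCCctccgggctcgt
Acsl1 first start, chr8:46470787-46471036, plus strand: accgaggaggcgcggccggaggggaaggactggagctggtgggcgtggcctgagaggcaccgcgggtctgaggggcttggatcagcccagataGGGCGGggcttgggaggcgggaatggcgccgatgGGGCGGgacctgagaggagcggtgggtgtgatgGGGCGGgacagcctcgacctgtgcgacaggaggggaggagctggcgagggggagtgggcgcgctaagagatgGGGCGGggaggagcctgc
Acsl1 second start, chr8:46490716-46490965, plus strand: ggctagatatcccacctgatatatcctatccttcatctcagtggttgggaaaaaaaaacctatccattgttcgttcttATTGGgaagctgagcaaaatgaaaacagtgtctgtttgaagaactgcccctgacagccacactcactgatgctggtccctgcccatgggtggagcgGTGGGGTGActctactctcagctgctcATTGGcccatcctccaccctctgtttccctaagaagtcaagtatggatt
Mboat1, chr13:30136240-30136489, plus strand: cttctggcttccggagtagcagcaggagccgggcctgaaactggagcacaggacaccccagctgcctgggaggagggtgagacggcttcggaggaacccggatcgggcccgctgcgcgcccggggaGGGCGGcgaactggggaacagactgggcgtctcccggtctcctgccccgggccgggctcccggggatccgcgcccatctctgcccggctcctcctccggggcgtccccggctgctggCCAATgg

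Both strands were searched for the antioxidant response element core TGACNNNGC (in 10.2% of 32851 RefSeq promoter windows of the same length), the ATF4 and C/EBP composite core TGATGNAA (3.45%), the sterol regulatory element core TCACNCCAC (1.05%), the E-box CACGTG (6.02%), the GC box GGGCGG (32.7%) and the CCAAT box (33.8%). In the 10 windows of the 9 genes, the first 4 motifs matched once. That match was to the sterol regulatory element core, at bases 76 to 68 before the second start of Acsl1, on the opposite strand. The first start of Acsl1 had 4 GC boxes, the second had 2 CCAAT boxes, Acsl4 had 2 GC boxes that overlap each other, and Mboat1 had 1 GC box and a CCAAT box at bases 7 to 3 before its start. A match describes letters and not a bound site.

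Acsl5 and Acsl3 did not pass the test. ACSL5 is an enzyme of mitochondria and endoplasmic reticulum, and its gene (ENSMUSG00000024981.5, chr19:55251938-55297720, plus strand) stood at 61.9, 67.1 and 56.7 CPM in the DMSO libraries and at 55.1, 51.7 and 51.2 CPM in the erastin libraries. The groups did not overlap, but the gap between DMSO replicate 3 and erastin replicate 1 was small beside the spread within DMSO. Its log2 fold change was -0.23 (SE 0.09, 95% interval -0.44 to -0.03, edgeR unadjusted p = 0.0266, adjusted p = 0.0595). The adjusted p ran from 0.021 to 0.249 over the 17 alternative fits, and 6 of them put Acsl5 under the threshold as lower, among them the fit without DMSO replicate 3 (edgeR adjusted p = 0.026).

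Acsl3 (ENSMUSG00000032883.11, chr1:78657825-78707743, plus strand) had 13.4, 17.0 and 18.2 CPM in the DMSO libraries and 13.3, 16.4 and 16.1 CPM in the erastin libraries. These ranges overlap almost fully. The log2 fold change was -0.09 (SE 0.17, edgeR adjusted p = 0.71), and its 95% interval of -0.45 to 0.27 leaves room for modest changes either way.

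**Figure D2:**
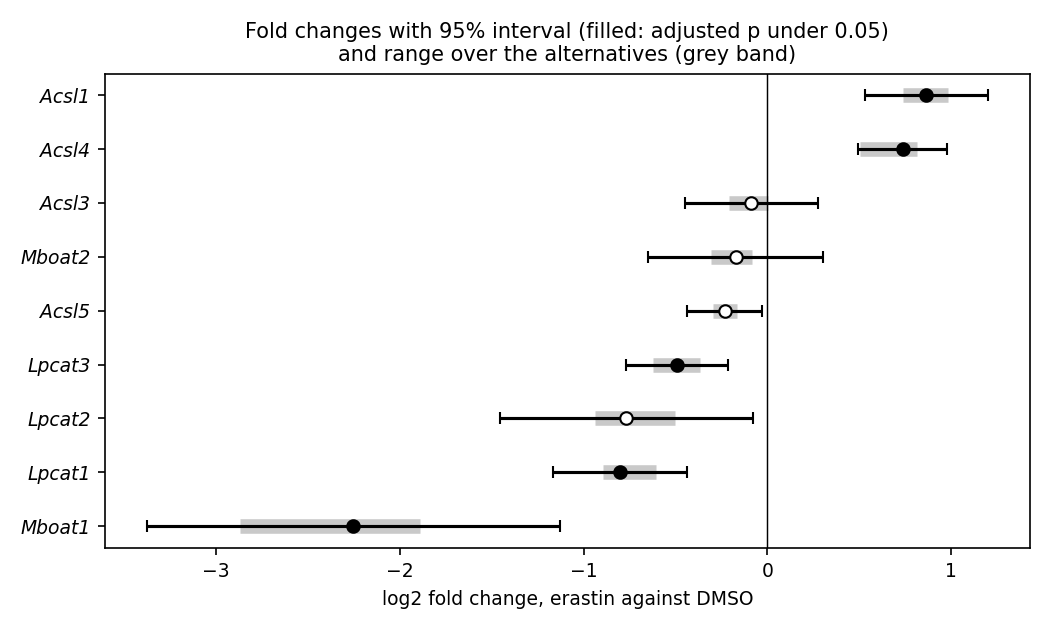
Log2 fold change of each gene (points) with its 95% interval (black bars), on a scale where positive values are higher with erastin. Filled points have an adjusted p under 0.05, and the grey band spans the 17 alternative fits. Acsl1 and Acsl4 lie right of 0, Lpcat1, Lpcat3 and Mboat1 left of it, and the 4 open points are Acsl3, Mboat2, Acsl5 and Lpcat2.

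Acsl4 and Acsl5 were the most abundant of the 4 synthetases in both groups. Levels of different genes were compared per length, as CPM divided by the kilobases of merged exons. In DMSO, Acsl5 (12.7 ± 1.07 CPM per kb, SD of 3 libraries) and Acsl4 (11.5 ± 1.66) did not differ beyond their spread, followed by Acsl3 (3.72 ± 0.579) and Acsl1 (1.42 ± 0.239). In erastin libraries the order was Acsl4 (19.2 ± 2.26), Acsl5 (10.8 ± 0.439), Acsl3 (3.50 ± 0.389) and Acsl1 (2.60 ± 0.279). Merged exons span 10483 bases in Acsl1 and 4357 in Acsl3, and the longest transcripts 5676 and 3950. The order of Acsl3 and Acsl1 with erastin therefore depends on the length used.

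The share of Acsl4 in the summed level of the 4 synthetases was 42.3%, 38.9% and 36.2% with DMSO and 56.5%, 49.96% and 52.7% with erastin. That of Acsl5 was 42.5%, 43.6% and 43.8% in DMSO and 29.6%, 31.0% and 29.3% in erastin libraries. Acsl5 thus took the larger share in every DMSO library, by little in replicate 1, and Acsl4 the larger one in every erastin library. The order in DMSO depends on the length used. Without division by length Acsl4 had 68.5 and Acsl5 61.9 CPM in DMSO replicate 1. The share of Acsl4 was 13.9 percentage points higher with erastin, that of Acsl1 2.42 points higher, and that of Acsl5 was lower by a difference of -13.3 points (exact two-sided permutation test, p = 0.1 for each, the smallest that 3 against 3 libraries allow). The difference in the share of Acsl1 in the summed ACSL level depended on the length used, at 3.94 points with the longest transcript and 4.21 without division by length. In all, 9 shares and 2 summed levels were tested over both enzyme classes, and none of their adjusted values can be lower than 0.1. Acsl3 held 12.8% ± 2.75 with DMSO and 9.75% ± 1.57 with erastin (SD of 3 libraries), with overlapping groups (exact permutation p = 0.3). The summed level of the 4 was 29.4 ± 2.55 CPM per kb with DMSO and 36.2 ± 2.01 with erastin (SD of 3 libraries; exact permutation p = 0.1).

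**Figure D3:**
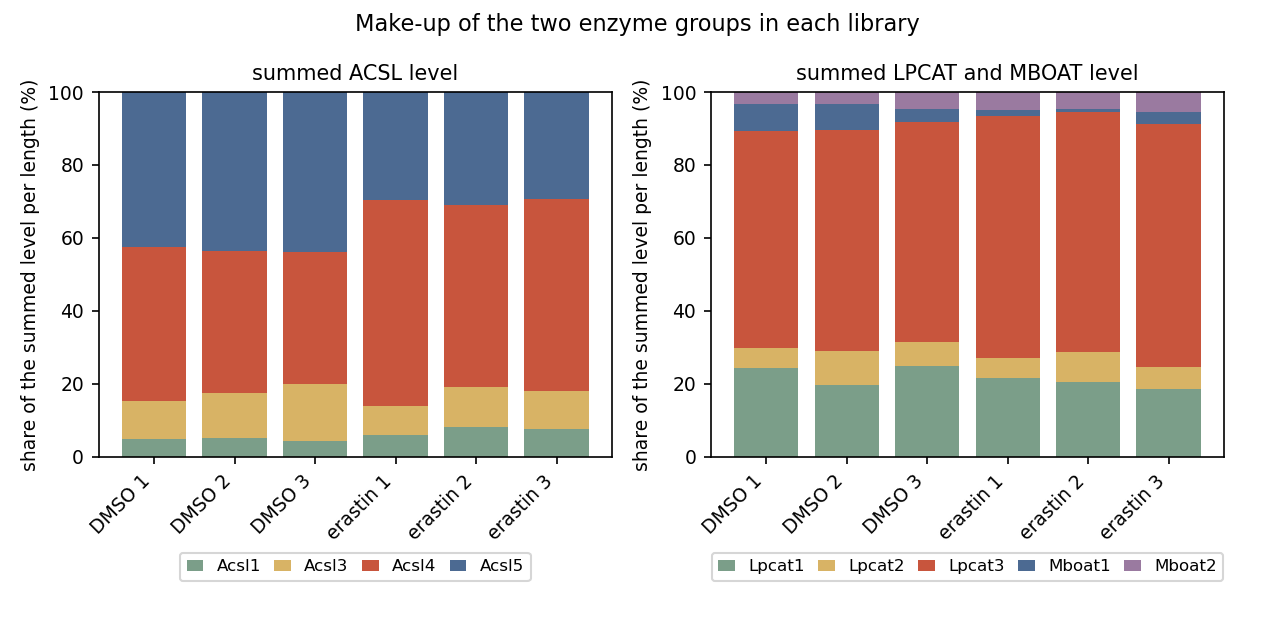
Share of each gene in the summed level per length (CPM per kb of merged exons) of the 4 synthetases (left) and the 5 acyltransferases (right), with 1 stacked bar per library adding to 100%. Acsl4 takes 36.2% to 42.3% of the left bars in DMSO and 49.96% to 56.5% in erastin libraries, and Lpcat3 fills most of each bar on the right.

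Among the 5 acyltransferases described here Lpcat3 (ENSMUSG00000004270.9, chr6:124663027-124704418, plus strand) was the most abundant per length in both groups. It stood at 51.2, 44.7 and 35.1 CPM with DMSO and at 31.8, 29.5 and 31.8 CPM with erastin. All erastin libraries were below all DMSO libraries, with DMSO replicate 3 closest to them. Lpcat3 fell from 43.6 ± 8.07 to 31.1 ± 1.34 CPM (SD of 3 libraries; log2 fold change -0.49 with an SE of 0.13, edgeR adjusted p = 0.00685). Acsl4, which supplies the polyunsaturated acyl-CoA that LPCAT3 uses, thus changed in the opposite direction. The exons of Lpcat3 share 334 bases (10.2% of their length) with those of Emg1 on the other strand, a ribosome assembly gene that stood at 38 ± 6.17 CPM with DMSO and 42.7 ± 1.70 CPM with erastin (SD of 3 libraries; edgeR adjusted p = 0.269).

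Lpcat1 (ENSMUSG00000021608.10, chr13:73467197-73516422, plus strand), known for making the dipalmitoyl lipid of lung surfactant, had 29.6, 20.5 and 20.4 CPM in the DMSO libraries. Its erastin libraries held 14.7, 13.1 and 12.5 CPM, all below the lowest DMSO library. Lpcat1 fell from 23.5 ± 5.29 to 13.4 ± 1.13 CPM (SD of 3 libraries; log2 fold change -0.80 with an SE of 0.17, edgeR adjusted p = 0.00149).

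Lpcat2 (ENSMUSG00000033192.4, chr8:92855339-92919279, plus strand), which is better known from macrophages, was low at 4.99, 7.15 and 4.05 CPM in DMSO and 2.79, 3.77 and 3.01 CPM in erastin libraries. The groups did not overlap, yet erastin replicate 2 came close to DMSO replicate 3. With a log2 fold change of -0.77 (SE 0.32, 95% interval -1.45 to -0.08, edgeR unadjusted p = 0.0312, adjusted p = 0.0678) it did not pass. Its point estimate was about as large as that of Lpcat1, and its standard error was larger. Its value depended on the library left out: without DMSO replicate 3 it was called lower (log2 fold change -0.94, edgeR adjusted p = 0.0311), and without DMSO replicate 2 it was not (log2 fold change -0.50, edgeR adjusted p = 0.324). Macrophage and other leukocyte markers summed to 26.1 to 46.1 CPM in DMSO and 29.7 to 60.8 CPM in erastin libraries, and of the 7 markers 0 were called (edgeR, adjusted p under 0.05). Lyz2 and Cd68 came near, with log2 fold changes of 0.71 and 1.06 (edgeR adjusted p = 0.0578 and 0.0548). They passed in 9 and 7 of the 17 alternative fits. The values of Ptprc, Adgre1, Csf1r, Itgam and Cd14 were -0.34, -0.05, -0.06, -0.85 and 0.15.

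Mboat1 (ENSMUSG00000038732.10, chr13:30136489-30246717, plus strand) showed the largest change of the 9 genes. It was counted 94, 105 and 30 times with DMSO and 20, 7 and 35 times with erastin. Scaled, these were 7.10, 5.82 and 2.34 CPM in DMSO and 0.931, 0.419 and 1.81 CPM in erastin libraries, so DMSO replicate 3 and erastin replicate 3 stood nearest each other. Mboat1 fell from 5.09 ± 2.47 to 1.06 ± 0.706 CPM (SD of 3 libraries; log2 fold change -2.25 with an SE of 0.53, edgeR adjusted p = 0.00314). Of all genes tested, 1.49% had a lower log2 fold change. The size of the change is known only loosely, with a 95% interval of -3.38 to -1.13.

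Mboat2 (ENSMUSG00000020646.12, chr12:24830879-24964397, plus strand), its closest relative in the list, did not pass the test. It had 8.24, 7.21 and 7.86 CPM in the DMSO libraries and 7.03, 5.99 and 7.62 CPM in the erastin libraries. The groups overlap, and the log2 fold change was -0.17 (SE 0.22, 95% interval -0.65 to 0.30, edgeR adjusted p = 0.57). The 95% intervals of Mboat1 and Mboat2 do not meet, while the difference between the genes was not itself tested in the model.

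Per length the DMSO order was Lpcat3 (13.4 ± 2.47 CPM per kb, SD of 3 libraries), Lpcat1 (5.07 ± 1.14), Lpcat2 (1.59 ± 0.47), Mboat1 (1.39 ± 0.674) and Mboat2 (0.812 ± 0.0545), where Mboat1 did not differ from either neighbour beyond its spread. In erastin libraries Lpcat3 stood at 9.51 ± 0.411, Lpcat1 at 2.90 ± 0.244, Lpcat2 at 0.942 ± 0.152, Mboat2 at 0.719 ± 0.0866 and Mboat1, now last, at 0.288 ± 0.193, and the spreads of Lpcat2 and Mboat2 met. The summed level of the 5 was 26.3, 22.6 and 17.8 CPM per kb in the DMSO libraries and 14.7, 13.7 and 14.6 in the erastin libraries, without overlap (exact permutation p = 0.1, the smallest possible). Although Lpcat3 fell, its share of that sum went from 60.1% ± 0.601 to 66.2% ± 0.342 (SD of 3 libraries). The share of Mboat1 went from 6.00% ± 2.10 to 1.98% ± 1.30 (exact permutation p = 0.1 for both shares). The shares of Lpcat1, Lpcat2 and Mboat2 overlapped between the groups (exact permutation p = 0.3, 0.7 and 0.2).

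The other genes of fatty acid activation, phospholipid remodelling and acyl-CoA use were read from 8 lists of 108 genes, of which 79 could be tested. In all, 18 were higher and 19 lower (46.8% called, beside the 43.1% of all genes), with a median log2 fold change of 0.0064. Of 12 other acyl-CoA synthetases and fatty acid transport proteins 1 rose and 3 fell. The 3 with the smallest p-values all fell: the very-long-chain synthetase gene Slc27a3 (31.1 ± 3.74 to 11.7 ± 0.533 CPM, SD of 3 libraries), the acetyl-CoA synthetase gene Acss2 (21 ± 2.53 to 9.87 ± 0.147) and the acetoacetyl-CoA synthetase gene Aacs (119 ± 2.14 to 79.8 ± 6.49), with edgeR adjusted p-values of 1.6e-06, 6.31e-05 and 7.23e-05. The gene called higher, named after its value was seen, was the transporter gene Slc27a6, at 4.32 ± 0.693 against 7.24 ± 2.11 CPM (SD of 3 libraries; edgeR adjusted p = 0.0494). Its call was lost in 5 of the 6 fits that left out a library, with edgeR adjusted p-values up to 0.191.

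Of 14 other glycerophospholipid acyltransferases 3 rose and 2 fell. Gpat3, which starts glycerolipid synthesis on glycerol 3-phosphate, rose from 3.99 ± 1.91 to 15.8 ± 1.09 CPM (SD of 3 libraries; log2 fold change 2.00, edgeR adjusted p = 3.06e-05). Lclat1, an acyltransferase of lysocardiolipin, rose from 59.4 ± 4.44 to 74.0 ± 2.98 CPM, and the lysophosphatidic acid acyltransferase gene Agpat4 fell from 43.3 ± 2.77 to 30.8 ± 2.09 CPM (SD of 3 libraries; edgeR adjusted p = 0.0112 and 0.00194). The remaining calls, also named after their values were seen, were Agpat5 as higher (log2 fold change 0.58) and Mboat7, which favours arachidonic acid for phosphatidylinositol, as lower (log2 fold change -0.29). Both were lost in 3 of the 6 fits that left out a library, with edgeR adjusted p-values up to 0.127 and 0.154. Of 5 genes of the MBOAT family with other substrates 2 rose and 1 fell. Soat1 and Soat2, which esterify cholesterol, rose by 0.44 and 1.28 on the log2 scale, and Hhat, which palmitoylates Hedgehog proteins, fell by 0.63 (edgeR adjusted p = 0.00251, 0.00748 and 0.00504).

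Phospholipases A2 release the lysophospholipids that LPCAT and MBOAT enzymes use. The list under that name also held Pnpla6, Pnpla7 and Abhd4. Of its 11 genes tested 2 rose and 2 fell, with a median log2 fold change of 0.0011. Pla2g12a, a secreted form, rose from 22.6 ± 2.60 to 54.4 ± 7.22 CPM, and Pnpla8, a form of mitochondria and peroxisomes, from 36.0 ± 6.98 to 58.5 ± 0.754 CPM, while the lysosomal Pla2g15 fell from 70.3 ± 7.43 to 44.6 ± 1.10 CPM (SD of 3 libraries; edgeR adjusted p = 1.57e-06, 0.000397 and 7.31e-05). The other one called lower, Pla2g7 (log2 fold change -0.36, edgeR adjusted p = 0.0496), lost its call in 4 of the 6 fits that left out a library. Of 15 genes of acyl-CoA thioesterases and acyl-CoA binding proteins 6 rose and 3 fell. Dbi, the acyl-CoA binding protein, fell from 65.4 ± 6.00 to 26.5 ± 0.647 CPM and the thioesterase gene Acot11 from 20.8 ± 1.02 to 8.81 ± 2.36, whereas the mitochondrial thioesterase gene Acot2 rose from 33.5 ± 1.23 to 63.2 ± 3.79 CPM (SD of 3 libraries; edgeR adjusted p = 1.51e-07, 0.000108 and 2.41e-06). Acot2 has a near-identical neighbour, Acot1, which was listed at 0 to 0.931 CPM, and reads of the pair may have been split between them.

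Genes listed under long-chain acyl-CoA use in mitochondria were lower in 7 of 9 cases and higher in 0, with a median log2 fold change of -0.57. Of all genes tested, 21.5% were lower. Cpt1a and Cpt2, the carnitine palmitoyltransferases of the outer and inner membrane, fell by 0.97 and 1.03 on the log2 scale, and Cpt1c fell by 0.65 (edgeR adjusted p = 2.99e-06, 3.03e-05 and 4.64e-05). The call of Acadl as lower, named after its value was seen, held in only 2 of the 6 fits that left out a library. Its edgeR adjusted p reached 0.107 in these fits. Acsl1, known for supplying acyl-CoA to mitochondrial oxidation, had risen. In ether phospholipid synthesis 1 of 8 genes rose and 1 fell. Gnpat, the first enzyme of that route, fell from 42.1 ± 4.74 to 31.0 ± 0.962 CPM and Selenoi rose from 46.8 ± 7.51 to 61.4 ± 0.606 CPM (SD of 3 libraries; edgeR adjusted p = 0.00545 and 0.0103), and Dhrs7b did not pass (log2 fold change 0.34, edgeR adjusted p = 0.0607). The call of Selenoi was lost with an offset for GC content and transcript length (edgeR adjusted p = 0.0649).

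Of 10 genes for enzymes that can oxygenate lipids or take part in it, 5 passed the filter on low counts, with 3 higher and 0 lower, and the lipoxygenase gene Alox15 had 0 reads in all 6 libraries, where 3 reads were worth 0.14 to 0.234 CPM. Cyb5r1, a reductase of cytochrome b5, rose from 162 ± 6.48 to 255 ± 6.58 CPM (SD of 3 libraries; log2 fold change 0.66, edgeR adjusted p = 3.44e-06). Por, the cytochrome P450 reductase gene, was called higher at 102 ± 0.461 against 122 ± 16.2 CPM (SD of 3 libraries; edgeR adjusted p = 0.0405), and Aloxe3, an epidermal lipoxygenase gene, at 0.329 ± 0.308 against 1.73 ± 0.717 CPM (SD of 3 libraries; edgeR adjusted p = 0.0247), with 0 reads in DMSO replicate 3. Leaving out 1 library ended the call of Por in 5 of 6 fits (in all but the one without erastin replicate 3) and that of Aloxe3 in 4 of 6 (without DMSO replicate 1 or 3, or erastin replicate 1 or 2). The edgeR adjusted p-values of these fits reached 0.219 for Por and 0.139 for Aloxe3.

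**Figure D4:**
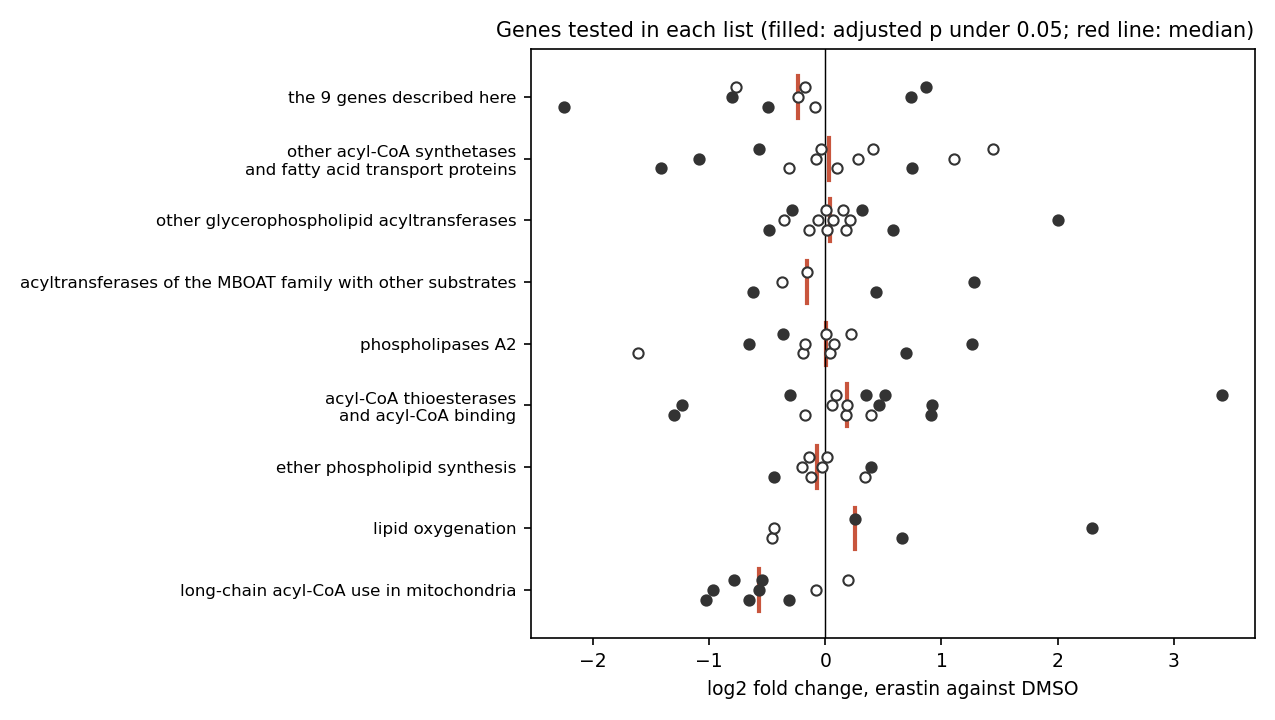
Log2 fold change of every tested gene of the 9 described and of the 8 lists (points, spread vertically only to part them), filled where the adjusted p was under 0.05, with the median of each row as a red line. The genes of long-chain acyl-CoA use in mitochondria lie mostly left of 0, and the other rows lie on both sides of it.

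The profile of Acsl4 over the 6 libraries was most like those of Alg10b, Naa50 and Phf5a among 8818 genes with a mean of at least 10 CPM. Likeness was the root mean square difference of log2 CPM, each gene centred on its own mean, and was 0.0617, 0.0683 and 0.0692. That of Lpcat3 was most like Rab11b (0.0235), Fam149b (0.0444) and Ssr1 (0.0645). Alg10b, Naa50 and Phf5a rose, with log2 fold changes of 0.72, 0.71 and 0.70. Rab11b, Fam149b and Ssr1 fell, with log2 fold changes of -0.46, -0.54 and -0.41. The call of Rab11b held in 4 of the 6 fits that left out a library, that of Fam149b in 3 and that of Ssr1 in 6.

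Total counts ran from 13333911 to 20509970 per library, and the 2 smallest libraries were DMSO replicates 1 and 3. Between libraries of the same group the counts differed by a chi-square of 11.0 to 19.2 per degree of freedom (genes whose 2 counts sum to 20 or more), far above counting noise. Summed CPM of endothelial markers was 5.16 to 7.71 with DMSO and 14.1 to 17.6 with erastin. Kdr and Tek were higher, 2 of the 3 tested, Emcn was not called, and Pecam1, Cdh5 and Tie1 did not pass the filter on low counts. Skeletal muscle markers summed to 35.8 to 45.5 and 65.1 to 68.8 CPM. Most of that was Des (40.6 ± 4.97 and 66.7 ± 1.95 CPM, SD of 3 libraries), called higher. Myod1, Myog, Actn2, Ckm and Myh3 did not pass the filter. Neural markers summed to 137 to 175 and 135 to 158 CPM (1 of 3 tested higher, 1 lower). Epithelial markers summed to at most 4.005 CPM and erythroid markers to at most 0.151 CPM in any library. The part of these marker differences in the values of the 9 genes was not tested.

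Some exons are shared with neighbouring genes, and whether the counting used the strand is not given in the sources used here. Acsl5 shares 404 bases of exon (8.31%) with Zdhhc6 on the other strand (27.9 ± 3.27 CPM with DMSO and 30.6 ± 2.88 CPM with erastin, SD of 3 libraries; edgeR adjusted p = 0.426), and Acsl3 shares 244 bases (5.60%) with Utp14b on the same strand (9.97 ± 2.87 and 8.504 ± 1.01 CPM, SD of 3 libraries; edgeR adjusted p = 0.437). Acsl1, Lpcat2 and Mboat2 share 1039, 287 and 107 bases with opposite-strand genes that have no row in the table. How reads from these stretches were counted is not known. Acsl4, Lpcat1 and Mboat1 share no exon bases with another annotated gene.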

How the data were processed

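RNA was sequenced from 3 libraries of MEFs given DMSO and 3 given erastin. Libraries for the Ion Proton were made from RNA freed of ribosomal RNA and were amplified by PCR, per the labels' protocols, with no molecular identifiers described, so the floor of 3 counts covers counting error only. The deposited file holds whole-number read counts per gene, not normalized by the authors. The submitters' processing notes name HTSeq 0.9.1, SAMtools and the mm10 build (GRCm38) without stating their roles, and the aligner, annotation and strand setting are not given in the sources used here. Columns were matched to libraries by the sample numbers in the labels, and 0 columns were left unused. Gene symbols and exons came from GENCODE M21, which matched 42462 of 43346 identifiers.

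Counts were fitted with edgeR 4.0.16 in R 4.3.3: filterByExpr (minimum count 10, minimum total 15), TMM factors, and the quasi-likelihood test of erastin against DMSO with treatment as the only term. Standard errors were computed from the working weights of the fit, scaled by the posterior quasi-dispersion, and p-values were adjusted by Benjamini-Hochberg over the 14000 genes kept, with a threshold of 0.05. The fit was run on simulated counts with far fewer changed genes than were called here and the same dispersion for all genes. That setting cannot show its error rate in these data. Shares were compared with exact permutation tests over the 6 libraries. The 9 genes, the lists and the tests were chosen with earlier results of these data known. Named were the 9 genes, the genes ranked 1 to 3 by p-value in each list, and the 3 genes most like Acsl4 and Lpcat3. Overlapping genes were taken from the annotation, and any other gene named was picked after its values were seen.

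Alternatives were upper-quartile or RLE factors, total counts alone, no filter, a filter of 1 CPM in 3 libraries, the replicate number as a block, the Wald test of DESeq2 1.42.0, an offset for GC content and transcript length (mgcv 1.9.3), thinning to the smallest library, an adjusted p under 0.01, other lengths for the shares, and leaving out each library.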

Additional observations from a re-analysis of the deposited data

How the results depend on the processing

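Acsl1, Acsl4, Lpcat1, Lpcat3 and Mboat1 kept their direction and an adjusted p under 0.05 in all 17 alternative fits, Lpcat3 with the largest value, 0.0481, when 1 library was left out. The count of the 9 genes called was 5 to 7. Acsl5 passed as lower in 6 fits (upper-quartile factors, the offset for GC content and length and thinning, each of the last 2 with and without the replicate block, and without DMSO replicate 3) and Lpcat2 in 1 (without DMSO replicate 3), so that leaving out a library gave 3 to 5 genes lower. Leaving out a library gave Acsl3 log2 fold changes of -0.21 to 0.0012, the latter without erastin replicate 1 and the one change of sign among the 9 genes. Acsl3 and Mboat2 passed in 0 of the 17 fits. With the replicate block 5882 of all genes and 5 of the 9 were called. Deviations from the group means had correlations of -0.0055 to 0.0401 across genes for the 3 equally numbered pairs. For the 6 other pairs they were -0.0446 to 0.0348. The labels do not say whether equally numbered libraries shared a culture or day, and these correlations cannot settle it. Without division by length, or with the length of the longest transcript, the difference in the share of Acsl1 in the summed ACSL level was 4.21 and 3.94 points. Without division by length that in the share of Lpcat3 in the summed LPCAT and MBOAT level was 4.76, and that in the share of Mboat2 in the summed LPCAT and MBOAT level was 3.06, since these shares weigh each gene by its length. Over all genes 4305 to 6104 were called. The cause of the other changes was not tested. With all libraries thinned to the depth of the smallest in 1 random draw, the 5 genes called were called again and Acsl5 was added as lower. What depth contributed to the calls was not tested.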
